A study of Cicer arietinum with 8 samples.

Results

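The cold response of the leaves of DOOEN (ATC 40874), a chickpea (Cicer arietinum) genotype that the study classed as cold susceptible and named Susceptible2, was described here across all printed features of a spotted cDNA array. The members were the features for which the log2 ratio of cold-treated over control leaves could be measured on at least 2 of the 3 biological replicates, and they numbered 514 of the 756 features other than controls. Another 207 features had no usable spot on any replicate and 35 had a value on 1 replicate only. Of the 514 features, 463 had values on all 3 replicates. DOOEN leaves were 1 of 8 groups in the series.

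Each arm of the comparison held 5 potted glasshouse plants of DOOEN, and both arms were grown at 15 to 25 °C. The treated plants were given nights at 5 °C at 2 weeks after flowering, with the day temperature of the glasshouse, and the leaves of both arms were harvested after 7 such nights. Each hybridisation set cold RNA against control RNA on 1 slide in 2 colours. The cold RNA carried Cy5 in replicates 1 and 3 and Cy3 in replicate 2. Leaves of Tolerant2 (ILC 01276, cold tolerant), leaves of Susceptible1 (Amethyst, cold susceptible) and flowers, buds and early pods of DOOEN, called flowers here, all treated in the same way, served as the groups for comparison. Since pooled leaf tissue was measured, fewer cells of a type and less RNA per cell cannot be told apart.

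Chickpea is a cool-season legume that is hurt by chilling during flowering and pod set. Plants that meet cold commonly alter transcripts for protective proteins such as dehydrins and chaperones, for enzymes that remove reactive oxygen, for membrane transport, for photosynthesis, and for defence peptides that are often shared with responses to pathogens. Snakins and gamma-thionins are small, cysteine-rich antimicrobial peptides, and auxin-repressed proteins are named after transcripts that fall when auxin is given and rise in dormant or ageing tissue.

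The tissue label was checked with 22 features for chlorophyll a/b binding proteins, photosystem subunits and PPF1 (DY475509), a post floral protein. In the control channel 16 of them were higher, relative to the median of the hybridisation, on all 3 leaf hybridisations than on both DOOEN flower hybridisations, and 2 were lower. Their median level was 3.51 log2 units above that median in leaves and 2.27 above it in flowers. Several of the leaf signals were at the top of the scanner's range on all 3 replicates.

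The mean change after normalization was below 2-fold for most features. The median log2 ratio over the 514 features was -0.01. The loess normalization within each hybridisation holds this median near 0, so it does not measure the size of the response. The median standard deviation (SD) over replicates was 0.31. Of these features, 9 had a mean change of at least 2-fold, which is 1.75% of those tested, and all 9 were higher in the cold. In the limma fit across all groups, 2 features passed both an adjusted p under 0.05 and the 2-fold limit. Both were induced, which is 0.389% of the features tested, and none was repressed (0%). At an unadjusted p under 0.05 there were 37 features (7.2%), of which 30 were higher in the cold (5.84%) and 7 were lower (1.36%). Every replicate value was above 0 for 91 features (17.7%) and below 0 for 72 features (14%). These counts include features among the 32 that were saturated in both channels on all 3 replicates, whose sign is not informative. Counts for a class below are to be read beside these shares over all features, and no class was tested against them. In the table of log2 means that the authors deposited, whose column median was -0.16 and whose centring and shift were not stated, 14 features were at least 2-fold higher and 57 at least 2-fold lower in the cold. That table differs from the values here in several steps at once, and which of them set the difference was not tested.

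**Figure D1:**
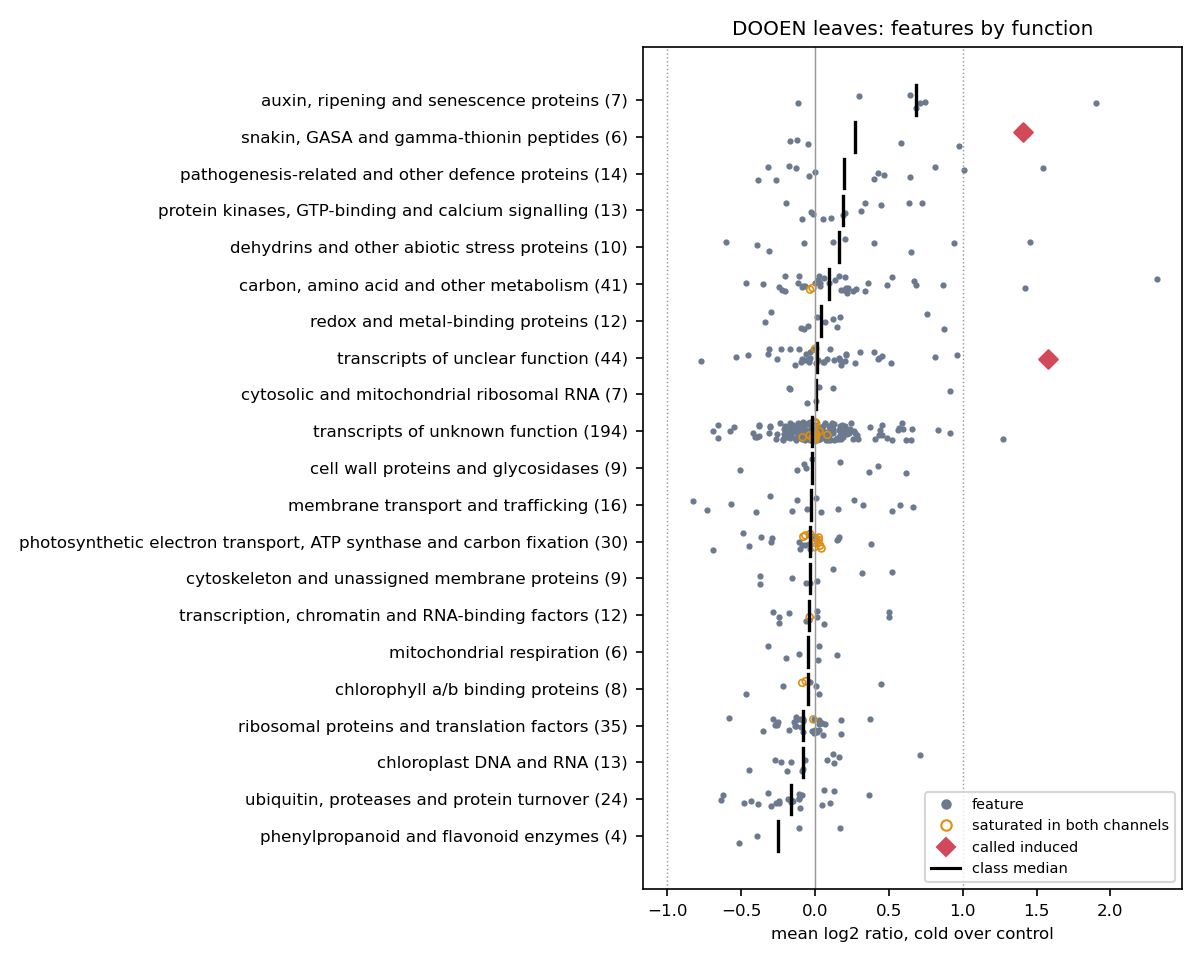
Mean log2 ratio of cold over control in DOOEN leaves (horizontal axis) for the 514 tested features, grouped by function, with the number tested in parentheses. Dots are features, open circles are features saturated in both channels on all 3 replicates, bars are class medians, diamonds are the 2 induced features and dotted lines mark 2-fold. Most class medians lay near 0, and the class of auxin, ripening and senescence proteins had the highest median, 0.68.

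The antimicrobial peptide SNAKIN2 (CV793608) was induced on every replicate by nearly the same amount. Its signal after subtraction of the background was 45866 in cold against 15560 in control leaves on replicate 1, 34827 against 10053 on replicate 2 and 47560 against 13566 on replicate 3. The cold signal was the higher one each time, also where the dyes were swapped. The normalised log2 ratios were 1.42, 1.22 and 1.58, with a mean of 1.41 ± 0.18 (SD, n = 3), a 2.65-fold induction. The standard error (SE) from limma was 0.25, with an adjusted p of 0.013 for n = 3. Each of its 6 spots was usable on all 3 replicates, and the SD between spots was between 0.06 and 0.33.

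The remaining members of the snakin and gamma-thionin class were mixed. The second SNAKIN2 clone (CV793606) was dimmer, at 3725 in cold and 1197 in control leaves on replicate 2. It had log2 ratios of 0.86 and 0.31 on replicates 2 and 3, no usable spot on replicate 1 and a mean of 0.58. CV793588, named as a gamma-thionin (a plant defensin), had log2 ratios of 1.20, 1.16 and 0.56, with a mean of 0.97 ± 0.36 and an unadjusted p of 0.018 from limma. Its cold channel was saturated in 5 of 6 spots on replicate 3, the replicate with the lowest ratio. The clones of disease resistance response protein 39 (DY396296, DY396277 and DY396276), a pea defensin family, did not hold 1 direction. All of them were between -0.68 and -0.60 on replicate 1, between 0.43 and 0.57 on replicate 2 and between -0.27 and -0.10 on replicate 3. The class had 12 members, of which 6 were tested. The median was 0.27, 1 was called induced, 2 passed an unadjusted p under 0.05 as higher, and 3 had every value above 0. The sign of the class median rested on single replicates, being 0.41 without replicate 1, -0.35 without replicate 2 and -0.017 without replicate 3.

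**Figure D2:**
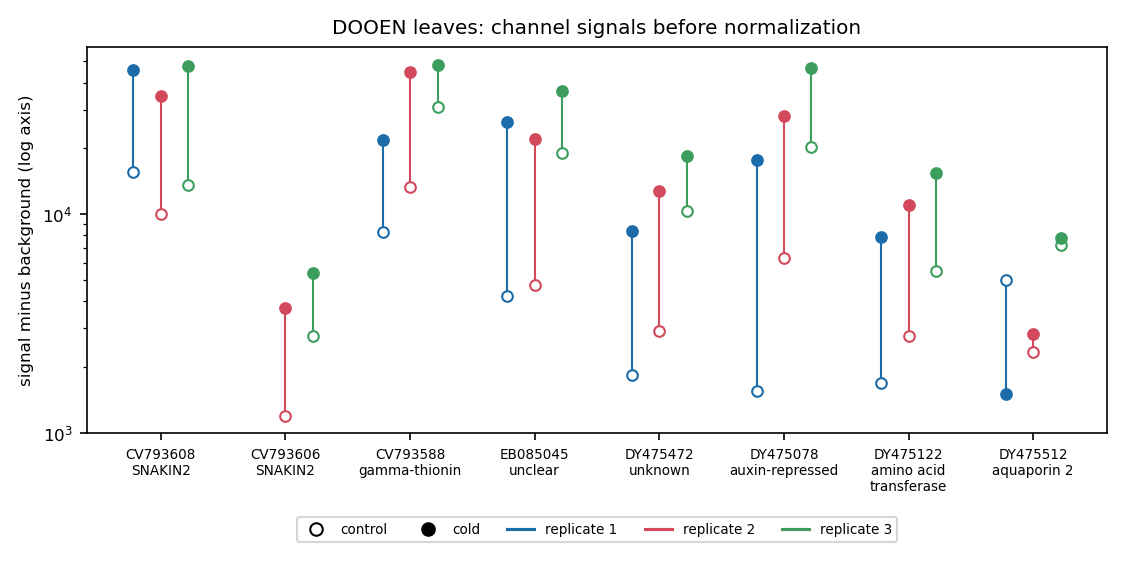
Signal minus local background in the control (open) and cold (filled) channel of each DOOEN leaf replicate, on a log axis, before normalization. The cold signal of the SNAKIN2 feature CV793608 was above its control signal on all 3 replicates, and aquaporin 2 was below its control on replicate 1 only in these signals.

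The second feature called induced, EB085045, is a transcript of unclear function. Its log2 ratios were 2.42, 1.58 and 0.72, with a mean of 1.58 ± 0.85 (SD, n = 3), or 2.98-fold, an SE of 0.30 and an adjusted p of 0.013 in the limma fit for n = 3. The replicates differed here by more than for SNAKIN2, and in the raw signals the control channel changed most, being 4201, 4757 and 19061 on replicates 1, 2 and 3 against cold signals of 26344, 22108 and 36521. A transcript of unknown function, DY475472, followed with ratios of 1.84, 1.41 and 0.56 and a limma adjusted p of 0.055.

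Both calls drew on the spread estimated over all 8 groups. With the 3 DOOEN leaf hybridisations alone in the limma fit, no feature was called (52 at an unadjusted p under 0.05), and the adjusted p was 0.218 for SNAKIN2 (CV793608) and 0.436 for EB085045. No feature was called by limma without replicate 1 (22 at an unadjusted p under 0.05) or without replicate 2 (24). Without replicate 3, EB085045 and DY475472 were called while SNAKIN2 had an adjusted p of 0.128 with a mean of 1.32. The mean of SNAKIN2 over replicate pairs stayed between 1.32 and 1.50, and that of EB085045 between 1.15 and 2.00.

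Among the pathogenesis-related and other defence proteins, 14 of 34 members were tested. Their median was 0.20, 3 were higher at an unadjusted p under 0.05, none was lower and none was called. The median was 0.41 without replicate 1, 0.15 without replicate 2 and -0.017 without replicate 3. The wound-induced protein clones, which were described after their values had been seen, did not share a direction. DY475220 had log2 ratios of 2.17 and 0.92 on replicates 2 and 3. DY475254 had ratios of 1.28 and 0.73 on the same replicates. Neither had a usable spot on replicate 1, where both were above 2 times background in the cold channel and below it in the control channel. DY475111 was -0.28, -0.31 and -0.21. A class 10 pathogenesis related protein (CV793610), of a family of small ribonuclease-like proteins, had ratios of 1.37, 0.86 and 0.20, a mean of 0.81 ± 0.59 and an unadjusted p of 0.17 from limma. A homologue of a putative disease resistance protein (CV793593) had 1.10, 0.34 and 0.49, with a mean of 0.64 ± 0.41 and a p of 0.016 before adjustment in limma. The lowest member with all replicates was CV793591, a homologue of a protein induced by virus infection, at -0.38 ± 0.45. Of the 5 pathogenesis-related protein 4A clones, whose products bind chitin, 4 had no usable spot, and CV793597 was -0.18, 0.88 and 0.58. All 41 lentil features, mostly resistance gene analogs, had no value.

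Most auxin-repressed protein clones lay above 0. Of 7 clones, 6 were tested, and each of these was above 0 on every replicate in which it was measured. All 6 had values on replicates 1 and 2, but only 4 on replicate 3. DY475078, which the study had singled out on these samples, had log2 ratios of 3.13, 1.57 and 1.01, a mean of 1.90 ± 1.10 (SD, n = 3) and 3.74-fold, with an unadjusted p of 0.0017 and an adjusted p of 0.14 in limma. Its control signal was 1551, 6272 and 20317 on replicates 1 to 3, while the cold signal was 17636, 28042 and 46615. The ratio was largest on the replicate with the dimmest control channel. The other 5 clones were described after their values had been seen. Grasspea cDNA gave 4 of them (DY396359, DY396289, DY396292 and DY396269), with means of 0.74, 0.71, 0.68 and 0.65. The chickpea clone DY475137 was at 0.82, 0.06 and 0.01, and all 6 of its cold spots were saturated on each replicate, so its ratio gives no size. Under each alternative run here on the scanner values, the clones that could still be tested had means above 0. Only 4 were tested without replicate 1, without replicate 2 or with values from all 3 replicates required. Without replicate 1 the lowest mean was 0.03. The seventh clone, the dim grasspea DY396379, was measured on replicate 2 only, at -0.08, and stood at -0.71 in the deposited table. Only DY475078 passed an unadjusted p under 0.05, and none was called. The means of these clones ranged from 0.30 to 1.90 and their median was 0.69. The class of auxin, ripening and senescence proteins that holds them had 16 members, of which 8 were without any value, among them the auxin-responsive protein IAA9 (DY396315), which the study also had singled out. PPF1 (DY475509) was flat, at -0.25, 0.08 and -0.16.

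**Figure D3:**
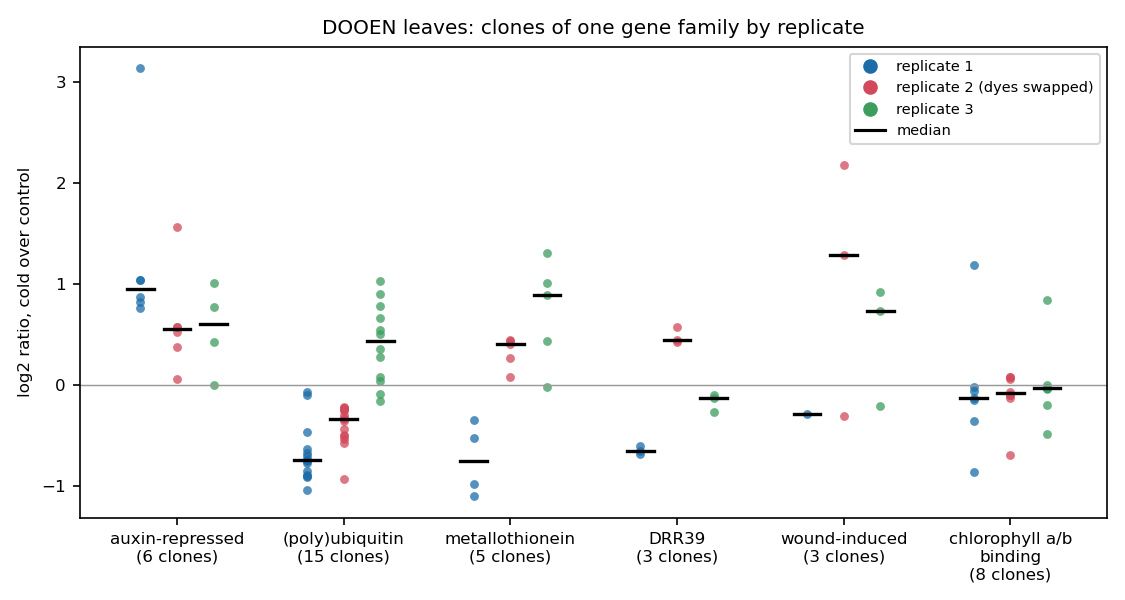
Log2 ratio of cold over control for each clone of 6 gene families in DOOEN leaves, by replicate (colours), with the median of each replicate as a bar. The 6 tested auxin-repressed clones lay above 0 wherever they were measured, which was 4 clones on replicate 3. The ubiquitin and metallothionein clones were below 0 on replicate 1 and mostly above 0 on replicate 3.

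Dehydrins and other abiotic stress proteins had a median of 0.16 over 10 tested of 21 members, and none of them passed an unadjusted p under 0.05. The cold-induced dehydrin DY475092, one of the hydrophilic proteins that protect membranes and proteins in drying or chilled cells, had log2 ratios of 0.58, 0.35 and 0.25, a mean of 0.40 ± 0.17 and an unadjusted p of 0.17 from limma. It was weak in signal, at 2595 in cold and 1204 in control leaves on replicate 2. A DNAJ-like co-chaperone (DY475488) had 1.64 and 1.27 on replicates 2 and 3 and no usable spot on replicate 1. Of its 6 cold spots 3 were saturated on replicate 3. Both features were picked after their values had been seen. An aluminium-induced protein (DY475138) was the highest member with all replicates, at 2.29, 0.41 and 0.12, but all 6 of its cold spots were saturated on replicates 2 and 3, so only the value of replicate 1 has a size. The heat shock protein DY475335 was the lowest of these, at -0.31 ± 0.35.

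In carbon, amino acid and other metabolism 41 of 56 members were tested, with a median of 0.10, and 28 of them were above 0. An amino acid transferase (DY475122) had log2 ratios of 1.86, 1.31 and 1.09, a mean of 1.42 ± 0.39 (SD, n = 3), 2.67-fold, and an unadjusted p of 0.0014 with an adjusted p of 0.14 in limma. With the 4 leaf groups alone in the fit its adjusted p was 0.036. The asparagine synthetase DY475477, which moves amide nitrogen from glutamine to aspartate and was picked after its values had been seen, had the largest mean of all tested features. Its ratios were 3.12 and 1.52 on replicates 2 and 3, a mean of 2.32 or 4.99-fold with an SE of 0.77 and an unadjusted p of 0.010 in limma. On replicate 1 its spots were flagged, with 20792 in the cold and 892 in the control channel. With flagged spots kept the mean was 2.87 with an adjusted p of 0.086 in limma. On replicate 3, 2 of its cold spots were saturated. Clones of this name did not share a direction in the deposited table. DY475477 stood at 2.62 there and the asparagine synthetase DY475475 at -1.44, while DY475108 had no value. A cytochrome P450 (DY475136), one of the haem enzymes that oxidise small molecules, had 0.49, 1.54 and 0.58, and a xylose isomerase (DY475309) had 1.13, 0.48 and 0.44, with unadjusted p of 0.0064 and 0.011 from limma. DY475136 was the highest of 4 tested cytochrome P450 clones, whose median was 0.12 and lowest mean -0.20, and the only 1 of them at an unadjusted p under 0.05. The lowest member with all replicates was a glucosyltransferase (DY475498) at -0.46 ± 0.31. No member was lower at an unadjusted p under 0.05.

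**Figure D4:**
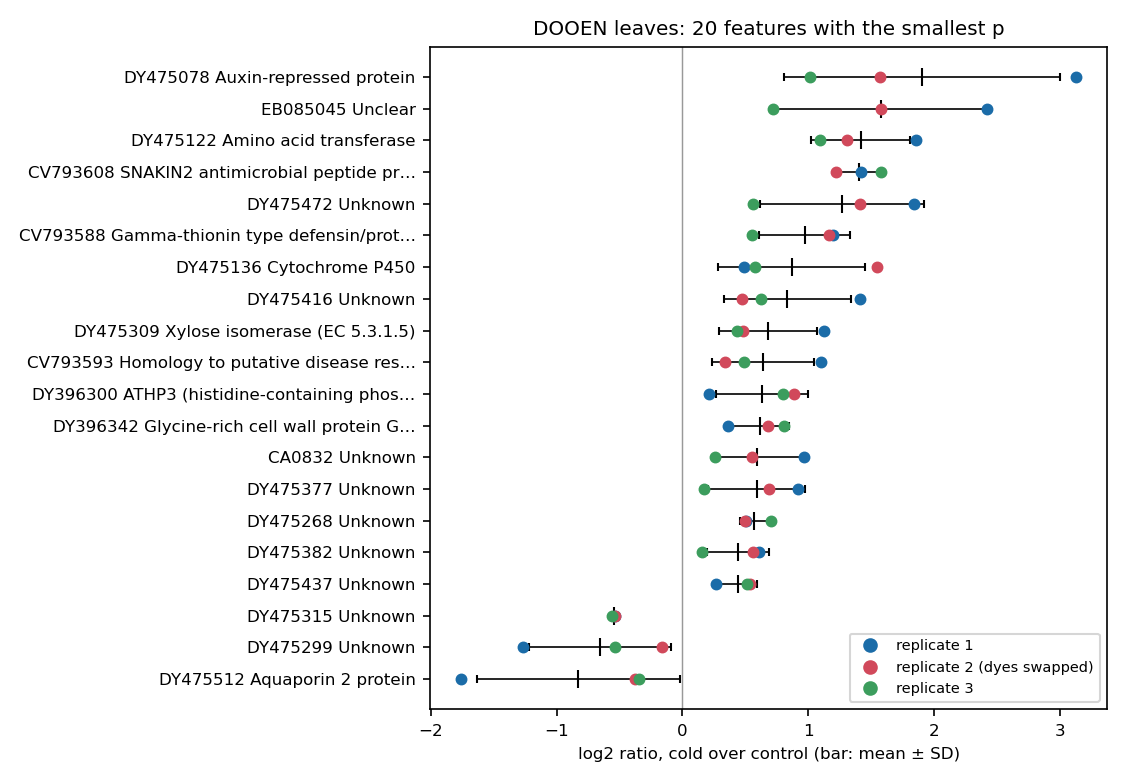
Log2 ratio of cold over control on each DOOEN leaf replicate (colours) for the 20 features with the smallest p among those with 3 values of 1 sign, with the mean and SD as a black bar. Of these features 17 were higher and 3 lower in the cold, and 9 had no known function.

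Photosynthesis could be measured only in part, because 11 of the 30 tested features for electron transport, ATP synthase and carbon fixation, and 2 of the 8 tested chlorophyll a/b binding proteins, were saturated in both channels on all 3 replicates (at least 3 of 6 spots at 65535, the top of the scanner's range). No fold can be given for these. They included plastocyanin (DY475224), the electron carrier between cytochrome f and photosystem I, and ferredoxin-NADP reductase (DY475083). Among the chlorophyll a/b binding proteins, which hold the antenna pigments, DY475489, whose control spots were saturated on replicate 3, had log2 ratios of -0.86, -0.06 and -0.48, with a mean of -0.47 ± 0.40 and an unadjusted p of 0.092 in limma. DY475454, at -0.35, -0.10 and -0.19, had the control channel saturated on each replicate and the cold channel on replicates 2 and 3, so that these ratios give no size. The dim DY475554 was 1.19, -0.69 and 0.85, and DY475555 had a mean of 0.03 over 2 replicates. DY475430 and DY475151 were saturated in both channels on part of the replicates and give no size either. DY475202 and DY475163 were the 2 saturated clones, and DY475534 had no value. None of this class passed an unadjusted p under 0.05, and of the 6 clones that were not saturated in both channels throughout, none had every value above 0 while DY475489 and DY475454 had every value below 0.

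In the larger class of electron transport, ATP synthase and carbon fixation, the median was -0.03, saturated features included, and none of the 30 features passed an unadjusted p under 0.05. The lowest was a magnesium chelatase subunit (DY396339), part of the enzyme that opens chlorophyll synthesis, at -1.88, -0.16 and -0.03. The highest was a photosystem II protein (DY475148) at 0.42, 0.86 and -0.14. Median centring in place of loess lowered the medians of these classes, to -0.26 for chlorophyll a/b binding proteins and -0.22 for the electron transport class, and raised that of protein kinases to 0.41. Chloroplast DNA and RNA features had a median of 0.25 on replicate 1, -0.42 on replicate 2 and 0.15 on replicate 3. Only replicate 2 had swapped dyes, so an effect of dye and one of that replicate cannot be told apart. The chloroplast 16S rRNA feature DY475146, picked after its values had been seen, was at 2.24, -2.23 and 0.37.

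Mitochondrial respiration showed no change that held over the replicates, and its members had a median SD of 0.47. Each of its 6 tested members lay between -0.32 and 0.15 in the mean. None passed an unadjusted p under 0.05, and none held 1 sign over all of its replicates. The highest was a cytochrome c oxidase subunit (DY475516), of the terminal enzyme of the chain, at -0.65, 0.64 and 0.44, and a further clone of the same name (DY475113) had a mean of 0.02. NADH-ubiquinone oxidoreductase of complex I (DY475294) was at -0.67 and 0.03 on replicates 2 and 3, and NADH dehydrogenase (DY475316) at 0.06, -0.76 and 0.11. In the deposited table DY475294 stood at -1.24 and DY475316 at -1.01, more than 2-fold lower in the cold. The other tested members lay between -0.347 and 0.0029 there. Succinate dehydrogenase subunit 3 (DY475443) was at -0.11 ± 0.45, and a subunit of the cytochrome c reductase complex (DY396401) at 0.03 ± 0.17.

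Ubiquitin, proteases and protein turnover had the lowest median of the classes with at least 10 tested features, -0.16 over 24, with no feature at an unadjusted p under 0.05 in either direction. This median was 0.094 without replicate 1 and -0.53 without replicate 3. The 15 tested polyubiquitin and ubiquitin clones, which encode the tag that marks proteins for the proteasome, made up most of it, and they were all grasspea cDNA. Their means were between -0.64 and -0.08, yet their medians by replicate were -0.74, -0.33 and 0.43, and without replicate 1 the median of the 12 clones still tested was 0.09. The grasspea features as a whole, which include these clones, were also below 0 on replicate 1 and above 0 on replicate 3 in the median. On replicate 2 the 2 medians differed in sign. Their median was -0.60 on replicate 1, 0.14 on replicate 2 and 0.43 on replicate 3, whereas the chickpea features had medians of 0.04, -0.01 and 0.01. With the 2 sources centred apart, 14 of the 15 ubiquitin clones were below 0 and their median was -0.23, and with median centring 11 were below 0. The lowest ubiquitin clone with all replicates was DY396424, at -0.75, -0.54 and -0.15, with an unadjusted p of 0.18 in limma.

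Redox and metal-binding proteins had a median of 0.04, which was 0.38 without replicate 1 and -0.22 without replicate 3. A thioredoxin (DY475069), a small protein that reduces disulphides, had 1.44, 0.86 and -0.04, a mean of 0.76 ± 0.75 and an unadjusted p of 0.017 in limma. Of the 5 metallothionein clones, cysteine-rich metal binders of which 4 were grasspea cDNA, the 4 with a value on replicate 1 were between -1.10 and -0.34 there, and all 5 were between -0.01 and 1.31 on replicate 3. The copper chaperone of superoxide dismutase (DY475397) was the lowest at -0.34 ± 0.51. Of 12 tested features in this class, 2 were higher at an unadjusted p under 0.05 and none was lower.

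Protein kinases, GTP-binding and calcium signalling proteins had a median of 0.19 over 13 tested of 32 members. Of these, 7 had every value above 0 and none had every value below 0, against 17.7% and 14% of all tested features. The histidine-containing phosphotransfer protein ATHP3 (DY396300), a carrier in the cytokinin phosphorelay as known from Arabidopsis, had log2 ratios of 0.22, 0.89 and 0.80, with a mean of 0.63 ± 0.37 and an unadjusted p of 0.0029 in limma. A second clone of this kind (DY475511), picked after its values had been seen, had 0.73, 0.56 and 0.06. The protein kinase DY475103 had most of its cold spots saturated on each replicate and all 6 control spots on replicate 3, so its ratios give no size.

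Among membrane transport and trafficking features, aquaporin 2 (DY475512), a channel for water, had the lowest mean of all tested features. Its ratios were -1.76, -0.38 and -0.34, a mean of -0.83 ± 0.81 and an unadjusted p of 0.0099 with an adjusted p of 0.45 in limma. In the raw signals, control exceeded cold on replicate 1 only, with 5016 against 1510, and on replicate 2 cold was 2843 against 2348. A tonoplast intrinsic protein of the same superfamily (DY396419) was above 0 on replicates 2 and 3, at -0.32, 0.77 and 1.29. The sorting nexin DY475523, singled out by the study, had a mean of -0.15 ± 0.20 here and stood at -1.12, more than 2-fold lower in the cold, in the deposited table. The class had a median of -0.02 over 16 features, with 1 higher and 1 lower at an unadjusted p under 0.05.

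The remaining classes had few features that stood out. A glycine-rich cell wall protein (DY396342) was at 0.36, 0.68 and 0.81, with an unadjusted p of 0.012 in limma. Caffeoyl-CoA methyltransferase (CV793595), an enzyme of lignin synthesis, was at -0.51, -0.29 and -0.39, and flavonol glucosyl transferase (CV793607) at -0.51 ± 0.41. Of the tested phenylpropanoid and flavonoid enzymes, 3 of 4 had every value below 0, against 14% of all tested features. Ribosomal proteins and translation factors had a median of -0.08, and none of 35 passed an unadjusted p under 0.05. Of the 35, 8 were below 0 and 2 above 0 on every replicate, against 14% and 17.7% of all tested features. A DNA binding protein (DY475266) had the highest mean of the transcription and chromatin class, 0.50 ± 0.41, and a 26S rRNA feature (EB085055) was at 1.57, 0.50 and 0.67.

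Of the 194 tested transcripts of unknown function, 9 were higher and 3 were lower at an unadjusted p under 0.05. These shares are close to those over all tested features, 5.84% higher and 1.36% lower. DY475315 was the most even of those that were lower, at -0.54, -0.54 and -0.56 on the 3 replicates, with an unadjusted p of 0.017 in limma. DY475299 was at -1.27, -0.16 and -0.54. DY475268 was the most even of the 9 that were higher, at 0.51, 0.50 and 0.70. DY475431, singled out by the study, had a mean of -0.38 ± 0.27 here and stood at -1.63 in the deposited table. DY475329, likewise singled out and of unclear function, had a mean of 0.17 ± 0.23 here and stood at -1.07 in the deposited table, the opposite sign.

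A further 4 features were above background (2 times the local background) in the cold channel and not well above it in the control channel on each of the 3 replicates, and none showed the opposite. They were a pathogenesis-related protein (DY396305, at least 1.96-fold brighter in the cold), a serine/threonine protein kinase (DY396307, at least 1.73-fold), a second pathogenesis-related protein (DY396343, at least 1.29-fold) and the 40S ribosomal protein S11 (DY475258, at least 1.38-fold). On its few unflagged spots DY396343 had log2 ratios of -0.33 on replicate 1 and 0.33 on replicate 2, which are opposite in sign. Their mean was 0.002, so these spots did not show the 1.29-fold difference. The bounds of the 4 features are differences between channel means over the 3 replicates after loess and scaling of the channels. They were taken over all spots, flagged ones included. They stay open to dye bias because only 1 replicate was swapped. More features were at least 2 times background on all replicates in the cold channel (517) than in the control channel (450). The channels also differed in brightness. The median signal over background was 6.10 in cold against 3.03 in control on replicate 1, 4.15 against 5.21 on replicate 2 and 10.3 against 2.91 on replicate 3. Detection was not adjusted for this, and whether it set the counts or the 4 features was not tested.

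None of the DOOEN leaf responses differed from those of the groups most like it after adjustment. Against Tolerant2 leaves 0 of 495 features passed an adjusted p under 0.05 in limma (0%), and 11 passed unadjusted (2.22%). Against Susceptible1 leaves 0 of 475 passed (0%), with 12 unadjusted (2.53%), and against DOOEN flowers 0 of 500 passed (0%), with 4 unadjusted (0.8%). The median SE of these differences was 0.35, 0.37 and 0.39 on the log2 scale. This fit did not pair hybridisations of the same number. With paired differences against Tolerant2 leaves, 0 of 484 features passed an adjusted p under 0.05 in limma, and 30 passed unadjusted.

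SNAKIN2 (CV793608) had log2 ratios of 1.91, 1.74 and 1.32 in Tolerant2 leaves and 0.66, 0.79 and 2.00 in Susceptible1 leaves, which overlap the DOOEN values. The difference of DOOEN from Tolerant2 leaves was -0.25 with a 95% interval from -1.01 to 0.51, and from Susceptible1 leaves 0.26 with an interval from -0.50 to 1.02. In DOOEN flowers the ratios were 0.09 and 0.01, but there all 6 spots were saturated in both channels on replicate 1, as were 6 spots in the cold and 1 in the control channel on replicate 2. The flower ratio therefore gives no size. The gamma-thionin type feature CV793588 was in the same state in flowers. In Tolerant2 leaves its ratios were 3.43, 2.32 and 0.94, against 1.20, 1.16 and 0.56 in DOOEN leaves, and the difference of -1.26 (interval -2.37 to -0.15) had an unadjusted p of 0.028 in limma and did not pass after adjustment.

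EB085045 had ratios of 0.35 and -0.26 in DOOEN flowers, with no saturated spot, and the leaf value was higher by 1.53 (95% interval 0.54 to 2.52, unadjusted p 0.0045 in limma, not past the threshold after adjustment). The values of 0.54, -0.06 and 1.42 in Tolerant2 leaves overlapped those of DOOEN leaves, and the difference was 0.95 (interval 0.06 to 1.83), which did not pass after adjustment. The auxin-repressed protein DY475078 was at 1.57 and 1.31 in DOOEN flowers, inside the range of the leaves, and at -0.35, 0.68 and 1.07 in Tolerant2 leaves. In Susceptible1 leaves it was at 1.79 and -1.16 on the replicates that measured it, and the difference from DOOEN leaves was 1.59 (interval -0.10 to 3.28). The amino acid transferase DY475122 was at 1.35, 1.39 and 1.81 in Tolerant2 leaves and at 0.65 and 0.67 in DOOEN flowers. Aquaporin 2 (DY475512) was below 0 on each replicate of Tolerant2 leaves, at -1.34, -0.76 and -0.69. The smallest p against Tolerant2 leaves belonged to ATHP3 and to 2 clones of beta-galactosidase, an enzyme that trims galactose from cell wall polymers, which were picked after their values had been seen. DY475141 had a mean of 0.17 in DOOEN leaves against -1.21 in Tolerant2 leaves, with an unadjusted p of 0.0088 for the difference, and DY396300 (ATHP3) 0.63 against -0.14, with an unadjusted p of 0.0082, both in limma and neither past the threshold after adjustment.

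**Figure D5:**
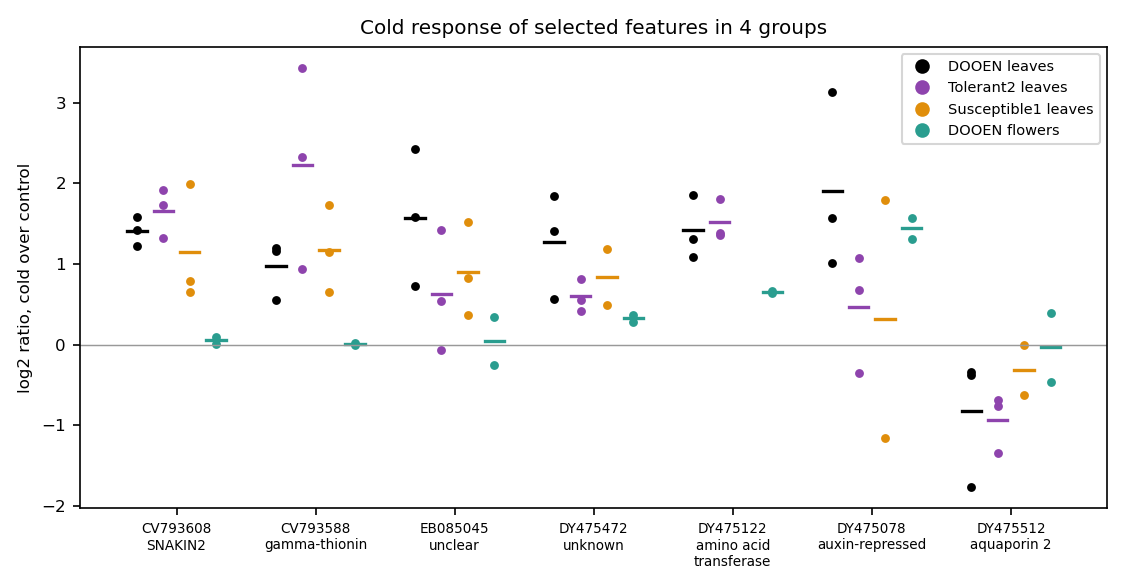
Log2 ratio of cold over control for 7 features in DOOEN leaves, Tolerant2 leaves, Susceptible1 leaves and DOOEN flowers, each dot being 1 hybridisation and each bar a group mean. SNAKIN2 and gamma-thionin dots of flowers lie near 0 where spots were saturated, and no difference between groups passed an adjusted p under 0.05.

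Agreement between the replicates limited all of these comparisons. Over the features measured on both, which are not independent replicates, the log2 ratios of replicates 1 and 2 had a Pearson's r of 0.02 (478 features), those of replicates 1 and 3 an r of 0.24 (466 features) and those of replicates 2 and 3 an r of 0.26 (496 features). The sign was shared by 42.7%, 63.7% and 51.4% of the features. Between 59.5% and 65.7% of the spots were unflagged per replicate, and 5.3% to 12% of the spots in a channel were saturated.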

How the data were processed

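Scanner intensities (mean signal and mean local background of each spot) were used as the authors deposited them. Per the file headers they came from ImaGene 5.5 and were not normalized. Per the labels, control and cold-treated samples of 3 biological replicates, 1 with swapped dyes, were hybridised. The files do not state whether replicates came from separate plantings, so p-values measure the spread between these hybridisations. Dyes were read from the file names and headers, and replicate numbers from the file names. The deposited log2 table, which the authors made by background subtraction, removal of flagged spots, LOWESS and a shifted log2, was used only as an alternative. Its values correlated with the means used here across 514 features (Pearson's r 0.74), so its direction was taken as cold over control, while its centring and shift are unknown.

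In limma 3.58.1 (R 4.3.3), intensities were corrected by normexp (offset 50) and normalised by loess (span 0.3, 4 iterations) within each hybridisation, with control and flagged spots left out. The mean over 6 spots was taken. Features needed a signal of 2 times background in at least 1 channel of 1 replicate of the series, which kept 738 of 756. One model over 8 groups and 22 distinct hybridisations (2 more held the same values as another and were counted once) tested each mean against 0 and between groups, two-sided, with Benjamini-Hochberg adjustment over all features with at least 2 values per group. Calls needed both an adjusted p under 0.05 and a 2-fold mean. All 3 DOOEN leaf hybridisations were quantified with those of Tolerant2 and cannot be split by batch. The steps were tested on simulated data with known changes. With 40 of 514 features changed, 40% of 2-fold increases and 40% of 2-fold decreases were called. With 200 changed, these shares were 28% and 36%. In that run 9.55% of unchanged features had an adjusted p under 0.05 in limma, and 0% were called. Of 4-fold changes, 76% to 100% were called. A feature that was not called may therefore have changed by 2-fold. The number of arrays limits the precision.

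Features were named through the study's feature list, joined by print order (732 of 732 full positions matched). None of 668 accessions was in the reference gene table, so sequences and genome positions were not used here. Named features were those called, the 20 with the smallest p among those with 3 values of 1 sign, the highest and lowest of each functional class, all members of 3 classes, 5 transcripts the study had chosen on these samples, and those above background in 1 channel only. The members, lists and tests were chosen with earlier results of these data known. Alternatives covered background, normalization, flags, filters, fits, dye, replicates and the deposited table.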

Additional observations from a re-analysis of the deposited data

How the results depend on the processing

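SNAKIN2 and EB085045 were called under plain background subtraction, median centring, loess per sub-array, flagged spots kept, medians over spots, both other filters on dim features, values from all 3 replicates and a dye term. With the 4 leaf groups only, SNAKIN2 and the amino acid transferase DY475122 were called and EB085045 had an adjusted p of 0.075 in limma. The number of induced features was 0 with the 3 DOOEN leaf hybridisations only. It was also 0 by the methods' t-test once adjusted by Benjamini-Hochberg. That t-test gave 2 features at an unadjusted p under 0.05 and 2-fold, and 29 at that p alone. The number was 0 to 2 when 1 replicate was left out. It was 3 when the 2 cDNA sources were centred apart (an alternative chosen after seeing the data). Of the 538 features with a deposited value, 14 (2.6%) were induced and 57 (10.6%) repressed at 2-fold, without a test. No other alternative gave a repressed feature. The differences between groups were refitted under plain background subtraction, median centring and loess per sub-array, with flagged spots kept, medians over spots, no filter, a dye term and without each DOOEN leaf replicate, and 0 features were called each time in limma (2 to 29 at an unadjusted p under 0.05). Same-numbered hybridisations of DOOEN and Tolerant2 leaves deviated alike in part. Their deviations from the group means correlated by 0.50 and 0.80 for replicates 1 and 2, but by -0.11 for replicate 3. Each of these pairs also shared the dye order. Replicates 1 and 2 set crosswise, with opposite dye orders, gave -0.71 and -0.60. Whether the replicate number or the dye set these values was not tested. With the replicate number as a block (consensus correlation 0.47) 1 feature was induced, SNAKIN2. The paired differences in limma called 0 of 484 features against Tolerant2 leaves, with 30 at an unadjusted p under 0.05. Against DOOEN flowers they called 0 of 471, with 9 at that p.

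With median centring the class medians became 0.012 (all features), 0.15 (carbon and amino acid metabolism), -0.26 (chlorophyll a/b binding), -0.22 (electron transport), 0.41 (kinases), 0.078 (unclear) and 0.0061 (unknown). With flagged spots kept they were 0.30 (cell wall) and 0.064 (transcription), and with separate centring of sources -0.027 (unknown). Leaving out 1 replicate gave medians from -0.036 to 0.012 (all features), 0.019 to 0.074 (carbon and amino acid metabolism), -0.074 to 0.48 (cell wall), 0.11 to 0.42 (dehydrins), -0.12 to 0.062 (ribosomal), -0.073 to 0.070 (transcription), 0.00350 to 0.074 (unclear) and -0.023 to 0.00518 (unknown). The sign also turned for ubiquitin and protein turnover (-0.53 to 0.094), snakins (-0.35 to 0.41), redox (-0.22 to 0.38), defence (-0.017 to 0.41), chloroplast DNA and RNA (-0.21 to 0.21), transport (-0.078 to 0.10), respiration (-0.068 to 0.064), photosynthetic electron transport (-0.062 to 0.027), ribosomal RNA (-0.014 to 0.24) and cytoskeleton (-0.072 to 0.0072). The causes were not tested. Spots below background or saturated in both channels limit which features could be measured.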

Other observations

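Some dim features had far lower values in the deposited table of log2 means than here. The peptidyl-prolyl isomerase DY475406, which helps proteins fold, was at -4.17 in the deposited table and at -0.39 over replicates 2 and 3 here, and an extensin-like cell wall protein (CV793587) was at -3.38 against -0.51. The unknown transcript DY475315 was at -1.73 against -0.55. SNAKIN2 (CV793608) was at 1.55 against 1.41, and EB085045 at 1.75 against 1.58. These features were chosen after their values had been seen, and the cause of the gaps was not tested.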
